A study of Rattus norvegicus with 5 samples.

Results

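The cytochrome P450 superfamily was examined in 4 rat hepatocellular carcinoma cell lines and 1 rat liver, each hybridised to 1 single-colour array. Its members were the probes whose platform gene symbol starts with Cyp and a digit, other than the Cyp26a1 and Cyp51 probes, which were not used here. The rule gave 76 of the 33849 discovery probes on the array. Of these, 72 carried a single gene symbol and stood for 59 of the 12198 genes named on the array, and 4 carried several symbols (Cyp3a2 or Cyp3a23-3a1, Cyp4a3 or Cyp4a2, and 2 Cyp11b probes). The rule uses symbols and no measured value, but it was chosen with earlier results of these data known. The family number in each symbol set the grouping, with families 1 to 4 (57 probes) acting mainly on drugs and lipids, and the other families (19 probes) acting mainly on sterols, steroid hormones, vitamin D and retinoids.

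The lines N1 and L2 make up the class the study calls highly metastatic, and C5F and C6 the class of low metastatic potential. All 4 were derived from liver tumours of male F344 rats, aged 31 weeks, that had received N-nitrosomorpholine and diethylnitrosamine. The comparison liver came from a male SD rat aged 50 weeks, so strain, age, carcinogen treatment, tumour origin and growth as a line cannot be told apart in any comparison with it. Each line and the liver is 1 sample, and each class holds 2 lines. The scanner's quality calls put 32.7% to 39.2% of discovery spots on the line arrays, and 30.6% on the liver array, above background. The number of arrays, and the single liver, limit the precision of every value below.

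P450 enzymes are haem proteins of the endoplasmic reticulum and mitochondria that insert an oxygen atom into their substrates. They draw electrons from P450 oxidoreductase or from ferredoxin. In rat liver, hepatocytes carry most of the superfamily. Families 1 to 3 clear drugs, toxins and steroids, and family 4 hydroxylates fatty acids and eicosanoids. Members of families 7, 8 and 27, Cyp27a1 among them, turn cholesterol into bile acids. Several rat members differ between the sexes, with Cyp2c11, Cyp2c13, Cyp3a2 and Cyp2a2 known as male forms and Cyp2c12 as a female form.

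Most P450 genes that were measurable in liver were lower in all 4 lines. Values are given as log2 signal, that is, the log2 of the scanner's raw intensity after quantile normalisation, with signals under 2.53 raised to 2.53 (1.34 on the log2 scale). A spot that the scanner called near background is described so, and such values have no order among themselves. Of the 76 probes, 56 had at least 1 spot above background and 52 passed the filter, which asked for a spot above background either in liver or on 2 or more line arrays. The lines were tested against liver with limma for 45 of them. The other 7 that passed had no usable liver spot or too few usable line spots to estimate a spread. At a Benjamini-Hochberg adjusted p under 0.05 over all 11949 probes tested, 31 members were lower in the lines and 0 were higher. At an unadjusted p under 0.05 in the same limma fit, 3 of 45 members were higher, against 21.4% of all probes tested. Over all probes tested, 9.38% were called lower and 9.01% higher. With arrays scaled to the median of probes above background, 1203 of all probes were lower and 665 higher, and 30 members were lower. The filter admits a probe bright in liver alone, so the closer background is the probes above background in liver, of which 13.3% were called lower, against 31 of 39 P450 probes.

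The 31 probes stood for 29 genes, and in each of them every usable line lay below the liver. For 21 of the 31, all usable lines were near background. These were 21 of the 42 P450 probes above background in liver, against 9.46% of all probes above background there. For these 21, the fall is given as a lower bound, written as "at least". It sets the liver signal against the lowest signal that the scanner called above background on each line array, or against the spot's own signal where that was higher. A rise over a near-background liver spot is bounded in the same way. The lowest signal is not a detection limit, since some near-background spots exceed it, such as Cyp2c7 in C5F at 3.50 against 2.98. The bound is thus a convention on the signal scale. Across 38 genes tested, the median difference was -5.11 on the log2 scale, or -4.13 with 19 of them held at that bound. The median of all probes tested was 0.15. The spread in the test came from the lines alone, since the liver is a single array. Where lines sit at the floor, flooring shrinks that spread, so the p-value of such a probe adds little to its values. When N1 or L2 was left out, 16 members were called lower in either case, against 5.24% and 5.54% of all probes tested. When C5F or C6 was left out, 0 members were called, and limma called 0 of 8795 and 0 of 8804 probes on the whole array. In both of those fits 31 members had an unadjusted p under 0.05. Every previously called member that could still be tested was still below the liver. The counts were 28 of 28 without N1, 28 of 28 without L2, 29 of 29 without C5F and 30 of 30 without C6. Since every usable line of these probes already lay below the same liver, that direction was all but fixed in advance and adds no support. In whole tissue and cultures alike, fewer cells of a type and less RNA per cell cannot be told apart.

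**Figure D1:**
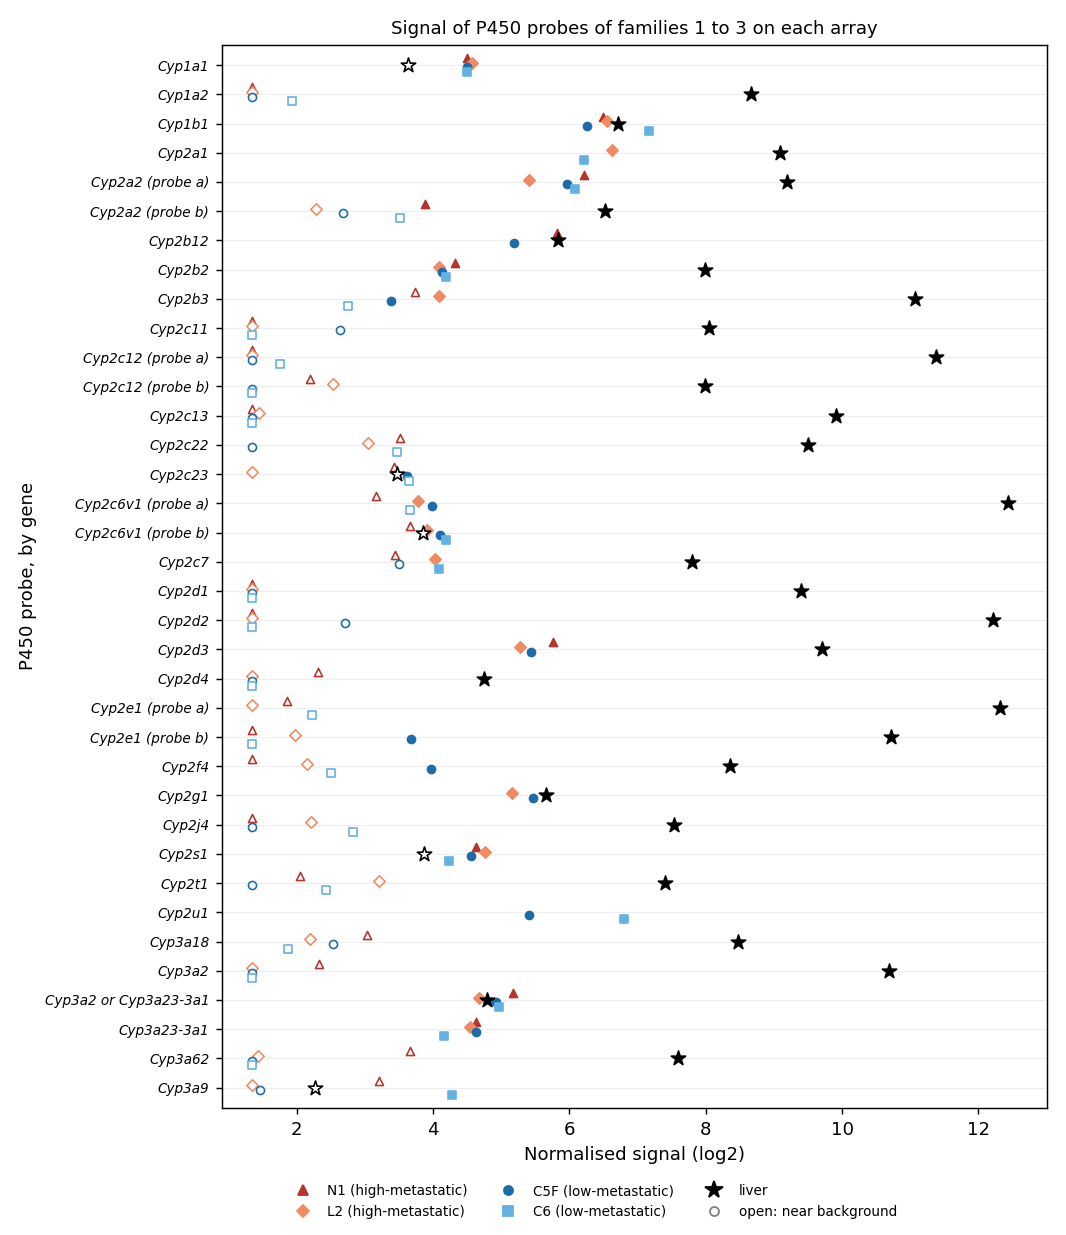
Log2 normalised signal (x axis) of each probe of families 1 to 3 with a usable spot above background (rows, by gene) in N1 and L2 (highly metastatic), C5F and C6 (low-metastatic) and liver. Each point is 1 array and open symbols are spots near background. For Cyp2d2 the lines sit between 1.34 and 2.71 against 12.21 in liver, while for Cyp1b1 the liver value of 6.72 lies among the lines.

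Promoter sequences are shown for 3 members that were bright in liver and near background in nearly all lines (Cyp2e1, Cyp2d2, Cyp2c12), for Cyp27a1, which differed most between the lines, and for Cyp1b1, which was as bright in the lines as in liver. They are RefSeq sequences on build GRCr8, 250 bases before to 50 bases after the gene start. The Cyp2e1 promoter lies at chr1:205269717-205270016, plus strand, that of Cyp2d2 at chr7:115819232-115819531, minus strand, and that of Cyp2c12 at chr1:248676985-248677284, minus strand. The Cyp27a1 promoter lies at chr9:83713282-83713581, plus strand, and that of Cyp1b1 at chr6:21094315-21094614, plus strand. Capitals mark matches on either strand to a TATA box, to the core of the HNF1 site, and to the HNF4, FOXA, C/EBP and xenobiotic response element letters given after the sequences.
Cyp2e1: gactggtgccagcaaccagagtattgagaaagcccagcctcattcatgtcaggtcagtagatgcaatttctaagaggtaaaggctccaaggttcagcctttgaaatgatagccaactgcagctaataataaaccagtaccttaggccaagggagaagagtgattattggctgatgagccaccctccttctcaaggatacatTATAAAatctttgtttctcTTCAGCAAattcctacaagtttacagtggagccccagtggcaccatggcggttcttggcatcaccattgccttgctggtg
Cyp2d2: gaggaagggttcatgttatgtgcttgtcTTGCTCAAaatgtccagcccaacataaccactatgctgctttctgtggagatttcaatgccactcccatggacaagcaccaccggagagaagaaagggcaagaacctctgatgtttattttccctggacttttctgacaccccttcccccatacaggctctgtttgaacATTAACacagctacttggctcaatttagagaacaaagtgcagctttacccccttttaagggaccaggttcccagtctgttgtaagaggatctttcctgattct
Cyp2c12: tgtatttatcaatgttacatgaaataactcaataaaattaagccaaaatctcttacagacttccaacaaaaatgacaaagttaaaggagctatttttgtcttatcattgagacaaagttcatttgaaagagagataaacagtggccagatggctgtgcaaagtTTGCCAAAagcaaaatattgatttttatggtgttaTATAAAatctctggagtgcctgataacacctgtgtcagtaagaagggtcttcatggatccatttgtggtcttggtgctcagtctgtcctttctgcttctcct
Cyp27a1: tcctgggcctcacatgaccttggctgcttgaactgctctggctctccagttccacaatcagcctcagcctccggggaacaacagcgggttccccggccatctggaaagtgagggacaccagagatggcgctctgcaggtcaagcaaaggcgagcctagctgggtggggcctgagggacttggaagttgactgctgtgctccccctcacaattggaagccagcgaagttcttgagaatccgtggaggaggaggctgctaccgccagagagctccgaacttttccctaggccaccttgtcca
Cyp1b1: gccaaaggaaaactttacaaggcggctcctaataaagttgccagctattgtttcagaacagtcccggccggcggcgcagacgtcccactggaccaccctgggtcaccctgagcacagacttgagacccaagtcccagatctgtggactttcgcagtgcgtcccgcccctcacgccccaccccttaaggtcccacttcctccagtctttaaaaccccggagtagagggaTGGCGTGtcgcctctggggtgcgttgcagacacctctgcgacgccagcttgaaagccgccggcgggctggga
The TATA box letters TATAAA are in the Cyp2e1 and Cyp2c12 windows, and the C/EBP letters TTGCNNAA are in those of Cyp2e1, Cyp2d2 and Cyp2c12. No letters of the set were found in the Cyp27a1 window. Of the 59 genes, 46 matched a promoter in the table. TATAAA was in 30.4% of those 46, in 45.5% of the 22 of them called lower, and in 14.3% of all 27457 promoters. TTGCNNAA was in 28.3% of the 46, in 36.4% of the 22, and in 10.5% of all. The HNF1 core letters GTTAAT were in 10.9% of the 46 and in 7.37% of all, and the full HNF1 palindrome, which contains that core on both strands, in 0 of the 46. The HNF4 letters CAAAGTCCA were in 4.35% of the 46 and 0.375% of all, and the FOXA letters TGTTTAC in 10.9% and 3.76%. The xenobiotic response element letters TNGCGTG were in 4.35% of the 46 and 5.12% of all, and the match is visible in the Cyp1b1 window. P450 paralogs share promoter sequence, so these shares are descriptions of related sequences, and a match of letters is not a binding site.

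The ethanol- and acetone-inducible enzyme Cyp2e1 was bright in liver and, by its brighter probe, near background in every usable line. That probe read 1.85 in N1, 1.34 in L2 and 2.22 in C6, with C5F unusable, against 12.32 in liver. The mean level of these 3 lines was at least 430-fold lower (limma adjusted p = 0.0115). All 3 usable lines were near background, so lines and liver did not overlap. The C5F spot was irregular in shape. With irregular spots kept, it read 4.98, and the difference between lines and liver was -9.72 (limma adjusted p = 0.0261). A second Cyp2e1 probe read 1.34, 1.98, 3.67 and 1.34 in N1, L2, C5F and C6, against 10.72 in liver, and only its C5F spot was above background. Its difference was -8.64 ± 1.04 on the log2 scale (SE, limma adjusted p = 0.0257).

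The Cyp2d subfamily holds the rat relatives of the human debrisoquine hydroxylase. It fell as a whole, with 4 of 4 probes lower, beside 9.38% of all probes tested. Cyp2d2 read 1.34 in N1, 1.34 in L2, 2.71 in C5F and 1.34 in C6, against 12.21 in liver. All 4 lines were near background and their mean level was at least 441-fold lower (limma adjusted p = 0.00964). Cyp2d1 was at the floor in all 4 lines, against 9.40 in liver, at least 62.6-fold lower. Cyp2d4, near background in all 4 lines and at 4.74 in liver, was at least 2.48-fold lower. Cyp2d3 differed from these in keeping a signal in the lines. It read 5.76 in N1, 5.28 in L2 and 5.44 in C5F, with C6 unusable, against 9.71 in liver, a difference of -4.23 ± 0.35 (SE, limma adjusted p = 0.0303).

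In the Cyp2c subfamily, enzymes of steroid, drug and arachidonic acid oxidation, the male and female forms were both lower. Cyp2c12, the form typical of female rats, read 1.34 in N1, L2 and C5F and 1.75 in C6, all near background, against 11.38 in this male liver. It was at least 248-fold lower in the lines by this probe (limma adjusted p = 0.00627) and at least 23.6-fold lower by a second probe. Paralogs of this subfamily are close in sequence, and whether a probe also reads its neighbours was not tested. Cyp2c11 read 1.34 in N1, L2 and C6 and 2.63 in C5F, all near background, against 8.04 in liver, at least 24.5-fold lower. Cyp2c13 was at least 89.3-fold lower and Cyp2c22, a retinoid-oxidising relative, at least 66.9-fold lower, each with all 4 lines near background.

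A pair of Cyp2c genes kept a signal above background in 2 of the 4 lines. Cyp2c6v1 read 3.16 in N1, 3.78 in L2, 3.99 in C5F and 3.66 in C6, against 12.43 in liver. L2 and C5F were above background, N1 and C6 were near it, and the fitted difference was -8.78 ± 0.36 (SE, limma adjusted p = 0.00695). A second Cyp2c6v1 probe read 3.66 to 4.19 in the lines and was near background in liver at 3.86, so the 2 probes disagree and only the first shows a change. Cyp2c7, a retinoic acid hydroxylase, read 3.44 in N1 and 3.50 in C5F, both near background, and 4.03 in L2 and 4.09 in C6, against 7.80 in liver. Its fitted difference was -4.04 ± 0.40 (SE, limma adjusted p = 0.0189). Cyp2c23, known as an arachidonic acid epoxygenase of kidney, was near background in liver by both of its probes.

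The Cyp3a subfamily of drug and steroid hydroxylases had 3 of 4 tested probes called lower, beside 9.38% of all probes tested. Cyp3a2, a male form, read 2.32 in N1 and 1.34 in L2, C5F and C6, all near background, against 10.68 in liver, at least 152-fold lower (limma adjusted p = 0.00849). Cyp3a18 was at least 33.1-fold lower and Cyp3a62 at least 17.9-fold lower, with all lines near background. A probe shared by Cyp3a2 and Cyp3a23-3a1 gave another picture, at 5.17 in N1, 4.68 in L2, 4.93 in C5F and 4.97 in C6, against 4.80 in liver. Its difference of 0.14 ± 0.29 (SE) did not pass the test, and lines and liver overlapped. Cyp3a9 was above background in C6 alone, at 4.28.

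Family 1, the dioxin-inducible family, was divided. Cyp1a2, the constitutive liver member, read 1.34 in N1, L2 and C5F and 1.92 in C6, all near background, against 8.67 in liver, at least 37.8-fold lower (limma adjusted p = 0.0070). Cyp1a1, its inducible neighbour, was above background in all 4 lines and near it in liver. It read 4.49 in N1, 4.57 in L2, 4.49 in C5F and 4.50 in C6, against 3.63 in liver, at least 1.56-fold brighter in the lines with a limma adjusted p of 0.0634 that missed the threshold. It passed under 2 of the alternatives tried, with an adjusted p of 0.0250 without the filter on dim probes and 0.0373 with the 4 lines as 1 group. Cyp1b1, which acts on oestrogens and polycyclic hydrocarbons outside the liver, read 6.50 in N1, 6.56 in L2, 6.26 in C5F and 7.17 in C6, against 6.72 in liver. The difference of -0.10 ± 0.43 (SE) did not pass the test, changed sign under another scaling, and the liver lay within the range of the lines.

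The remaining members of family 2 spanned a wide range. Cyp2b3 read 3.73 in N1 and 2.76 in C6, both near background, and 4.08 in L2 and 3.37 in C5F, against 11.08 in liver. Its fitted difference was -7.59 ± 0.36 (SE, limma adjusted p = 0.00765). Cyp2b2, the main phenobarbital-inducible form with Cyp2b1, was above background in all 4 lines at 4.32, 4.09, 4.13 and 4.19, against 7.99 in liver, a difference of -3.81 ± 0.22 (SE, limma adjusted p = 0.00955). These 4 line values lay within a narrow band far below the liver. Cyp2a2, a male testosterone hydroxylase, likewise kept a signal, at 6.22 in N1, 5.41 in L2, 5.96 in C5F and 6.08 in C6, against 9.19 in liver, a difference of -3.27 ± 0.40 (SE, limma adjusted p = 0.0257). Its dimmer probe, with only N1 above background, missed the threshold at an adjusted p of 0.0688.

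Cyp2f4, known from lung, was above background in C5F alone among the lines, at 3.97, with N1, L2 and C6 at 1.34, 2.14 and 2.50, against 8.36 in liver. Its difference was -5.87 ± 0.74 (SE, limma adjusted p = 0.0275). Cyp2j4, an arachidonic acid epoxygenase, was at least 17.2-fold lower and Cyp2t1, whose substrates are not well known, at least 15.7-fold lower. Cyp2s1, an epithelial form, was above background in all lines, at 4.63, 4.77, 4.55 and 4.24 in N1, L2, C5F and C6, and near background in liver, at 3.86. It was at least 1.60-fold brighter in the lines, and the limma adjusted p of 0.139 did not pass.

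In family 4, whose enzymes hydroxylate fatty acids at their end carbon, 5 of 8 tested probes were lower and the others did not pass. The share lower over all probes tested was 9.38%. Cyp4a1, a clofibrate-inducible target of PPARalpha, read 3.22 in N1, 2.60 in L2, 3.07 in C5F and 1.85 in C6, all near background, against 8.63 in liver, at least 36.2-fold lower (limma adjusted p = 0.0198). Cyp4a3 was lower but above background in every usable line, at 5.14 in N1, 5.11 in L2 and 5.23 in C5F, against 10.25 in liver, a difference of -5.07 ± 0.24 (SE, limma adjusted p = 0.0163). Lines and liver were far apart for both genes by these probes. A probe shared by Cyp4a3 and Cyp4a2 was near background on all 5 arrays, the liver included, so it showed no fall. Of the Cyp4f enzymes, which inactivate leukotriene B4, Cyp4f4 was at least 12.3-fold lower and Cyp4f1 at least 1.60-fold lower.

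Cyp4f6 was closer to the threshold, at 2.66 and near background in N1, 4.05 in L2, 4.26 in C5F and 4.89 in C6, against 7.76 in liver. Its difference was -3.80 ± 0.68 (SE) with a limma adjusted p of 0.0455, and it missed the threshold under the other scalings (adjusted p = 0.0562, 0.0511 and 0.0592). Cyp4f5 read 6.21 in N1, 4.29 in L2 and 4.09 in C6, with C5F unusable, against a liver spot near background at 4.20, and did not pass. Cyp4b1, a lung form that activates furans, was above background in N1 alone among the lines. It read 5.12 in N1, 2.52 in L2, 2.73 in C5F and 3.10 in C6, against 5.14 in liver, so N1 was level with the liver while the other lines were near background. A Cyp4a8 probe read 4.27 to 5.12 in the lines, against 3.55 in liver, near background, and did not pass at an adjusted p of 0.170.

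Of the 5 bile acid and cholesterol enzymes, Cyp7a1, Cyp7b1 and Cyp8b1 were near background in all lines, and Cyp27a1 and Cyp46a1 were above it in some. Cyp7a1, the rate-limiting enzyme of classical bile acid synthesis, was at the floor of 1.34 in all 4 lines, against 8.70 in liver, at least 38.5-fold lower (limma adjusted p = 0.00627). Its floored line values have no spread of their own, so that p follows from the floor and the variance prior of the fit. Cyp7b1, the oxysterol hydroxylase of the alternative route, read 2.10, 1.99, 1.34 and 2.52 in N1, L2, C5F and C6, all near background, against 5.05 in liver, at least 3.08-fold lower (limma adjusted p = 0.0446). Cyp8b1, the sterol 12-alpha-hydroxylase that makes cholic acid, was near background on all 5 arrays, the liver included. Cyp46a1, the cholesterol 24-hydroxylase of brain, was above background in L2 alone, at 4.15.

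Cyp27a1, the mitochondrial sterol 27-hydroxylase, kept a strong signal in the low-metastatic lines. It read 3.71, near background, in L2, and 8.38 in C5F and 7.19 in C6, against 10.39 in liver. The N1 spot was irregular in shape and was left out; with irregular spots kept, it read 6.79. All usable lines were below the liver. The difference between lines and liver was -4.65 ± 0.67 (SE) and narrowly missed the threshold at a limma adjusted p of 0.0561. It passed under 5 of the 10 alternatives with every line kept, among them scaling to the 75th percentile (limma adjusted p = 0.0457) and the deposited normalised intensities (adjusted p = 0.0325). With irregular spots kept, so that N1 entered, the difference was -3.84 and did not pass (limma adjusted p = 0.142). The largest limma adjusted p among those 10 was 0.269.

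**Figure D2:**
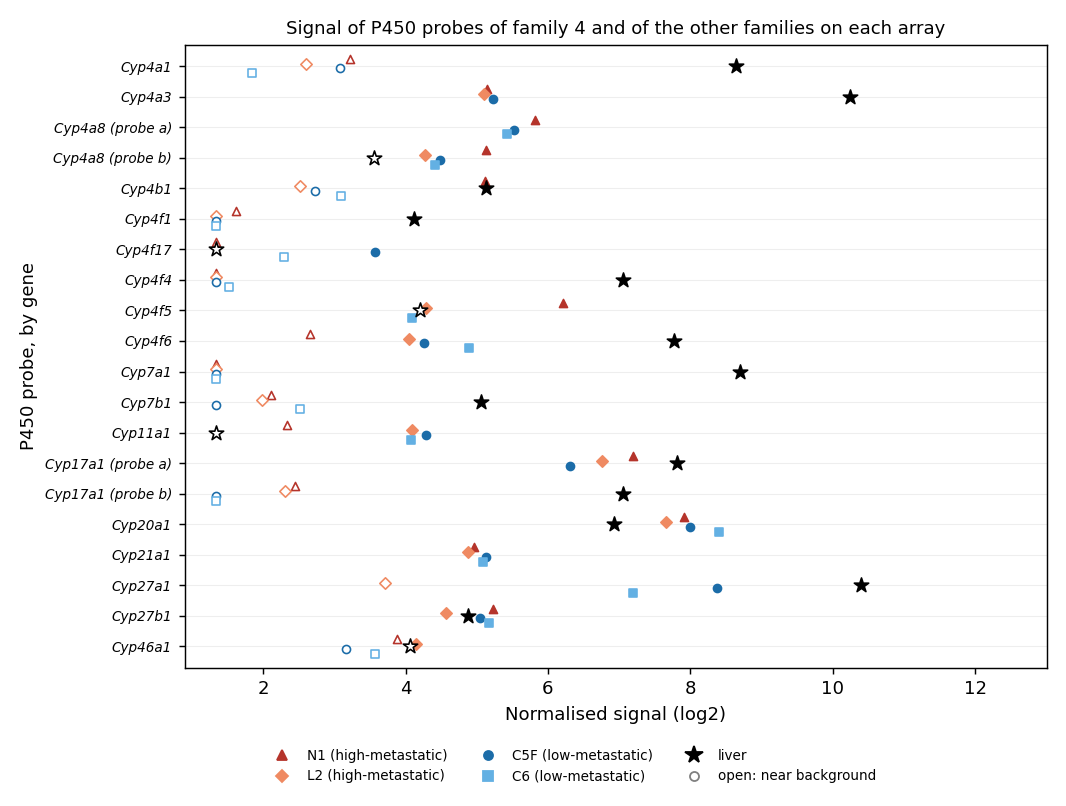
Log2 normalised signal (x axis) of each probe of family 4 and of the other families with a usable spot above background (rows, by gene) in N1 and L2 (highly metastatic), C5F and C6 (low-metastatic) and liver. Each point is 1 array and open symbols are spots near background. Cyp7a1 is at 1.34 in all 4 lines against 8.70 in liver, while Cyp27a1 is bright in C5F (8.38) and C6 (7.19).

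The steroid hormone members gave 1 call among 3 tested probes, beside 9.38% of all probes tested called lower. That call rests on probes that disagree. The brighter Cyp17a1 probe, for the 17-alpha-hydroxylase of sex steroid synthesis, read 7.20 in N1, 6.76 in L2 and 6.31 in C5F, with C6 unusable, against 7.82 in liver. Its difference of -1.17 ± 0.33 (SE) did not pass (limma adjusted p = 0.133). The dimmer Cyp17a1 probe was near background in all lines, against 7.06 in liver, at least 12.4-fold lower (limma adjusted p = 0.00683). Cyp11a1, the side-chain cleavage enzyme that starts steroid synthesis, was above background in 3 lines, at 4.09 in L2, 4.28 in C5F and 4.08 in C6, with N1 near background at 2.34 and the liver at the floor. Its difference was 2.36 ± 0.77 (SE), and the limma adjusted p of 0.124 did not pass. The aldosterone and corticosterone enzymes of the Cyp11b group and the aromatase Cyp19a1 were near background on all 5 arrays.

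The vitamin D, retinoid and orphan members showed no call. Cyp27b1, the vitamin D 1-alpha-hydroxylase, read 5.22 in N1, 4.57 in L2, 5.04 in C5F and 5.17 in C6, against 4.88 in liver, with a difference of 0.13 ± 0.34 (SE) that did not pass and changed sign under another scaling. Cyp24a1, which inactivates vitamin D, and Cyp26b1, which clears retinoic acid, were near background throughout. Cyp20a1, an orphan enzyme, stood above the liver in every line, at 7.91 in N1, 7.65 in L2, 8.0 in C5F and 8.40 in C6, against 6.93 in liver. Its difference of 1.06 ± 0.28 (SE) missed the threshold at a limma adjusted p of 0.0856.

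**Figure D3:**
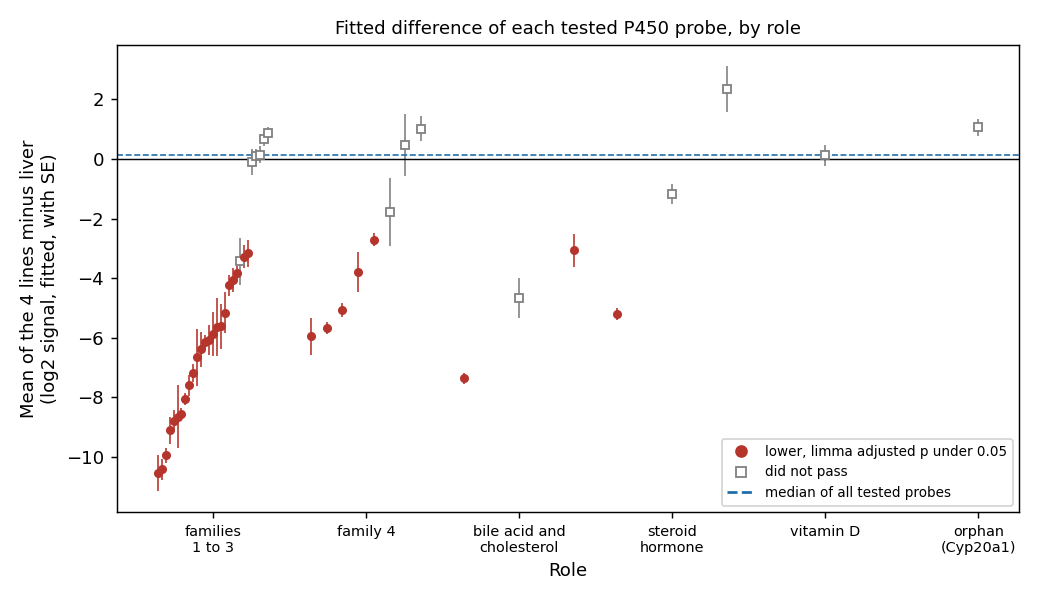
Difference of each tested P450 probe, mean of the 2 line classes minus liver (y axis, log2 scale), by role (x axis), with the standard error of the limma fit as bars, filled symbols for probes called lower, open squares for those that did not pass, and a dashed line at the median of all tested probes (0.15). Probes of families 1 to 3 run from -10.53 to 0.89, family 4 from -5.95 to 1.02, and the bile acid and cholesterol members from -7.36 to -3.07.

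The split by family number was uneven in what could be measured. In families 1 to 4, 35 of 57 probes were above background in liver and 28 of 37 tested probes were lower, with a median over 31 genes of -5.64, or -4.23 with bounds. In the other families, 7 of 19 probes were above background in liver and 3 of 8 tested were lower, with a median over 7 genes of -1.17. No test of the difference between these groups was made. Of all probes tested, 9.38% were called lower. Names without any spot above background on the 5 arrays, beyond those already given, were Cyp2a3, Cyp2b21, Cyp2j3, Cyp2j10 and Cyp4v3.

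Several members could not be tested because spots were irregular in shape. Cyp2a1, a testosterone hydroxylase, read 6.63 in L2 and 6.21 in C6, against 9.09 in liver, with N1 and C5F unusable. A Cyp3a23-3a1 probe, for the pregnenolone-carbonitrile-inducible form, read 4.63, 4.54, 4.63 and 4.16 in N1, L2, C5F and C6, and its liver spot was unusable. With irregular spots kept, the liver spot read 7.82, the difference was -3.34 ± 0.27 (SE, limma adjusted p = 0.0144), and 38 members in all were lower. The 7 added were both probes of Cyp2a1, both of Cyp3a23-3a1, 2 of Cyp4a8, and Cyp21a1, the steroid 21-hydroxylase of the adrenal, at -1.44 ± 0.20 (SE, limma adjusted p = 0.0299).

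Another 3 genes of family 2 had unusable spots and gave no call. Cyp2b12, a skin form, read 5.82 in N1 and 5.19 in C5F, against 5.84 in liver. Cyp2g1, the olfactory form, read 5.16 in L2 and 5.46 in C5F, against 5.65 in liver. Cyp2u1, a fatty acid hydroxylase, read 5.41 in C5F and 6.80 in C6, with no usable liver spot. With irregular spots kept, their differences were -0.01 ± 0.27, -0.11 ± 0.22 and 0.12 ± 0.59 in that order (SE), and none passed.

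Line by line, the P450 share above background was below the array's own share in each line and above it in the liver. Among usable probes with a single gene, 18 of 68 P450 probes (26.5%) were above background in N1, 23 of 68 (33.8%) in L2, 27 of 69 (39.1%) in C5F and 20 of 67 (29.9%) in C6, against 41 of 65 (63.1%) in liver. Over all such probes the shares were 47.5% in N1, 49.2% in L2, 54.4% in C5F and 48.5% in C6, against 43.6% in liver. The median P450 difference from liver was -5.10 in N1, -5.24 in L2, -4.70 in C5F and -4.98 in C6. All probes together had medians between 0.066 and 0.18. Each of these differences uses the same liver array, and the floor sets many of the line values, so the medians give no order of the lines.

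Among members above background in liver, most were at least 4-fold lower in every line. The counts were 32 of 39 in N1, 35 of 41 in L2, 33 of 40 in C5F and 33 of 37 in C6. The share of all such probes was 18.1% in N1, 18.5% in L2, 18.7% in C5F and 18% in C6. With near-background spots held at their bound, a choice made after seeing the data, the counts were 29, 31, 31 and 29, against 10.9%, 12.3%, 13.9% and 11.4% of all such probes. Members above background in exactly 1 line were Cyp4b1 and the dimmer Cyp2a2 probe in N1, Cyp46a1 in L2, Cyp3a9 in C6, and Cyp2c23, the dimmer Cyp2e1 probe, Cyp2f4 and Cyp4f17 in C5F.

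**Figure D4:**
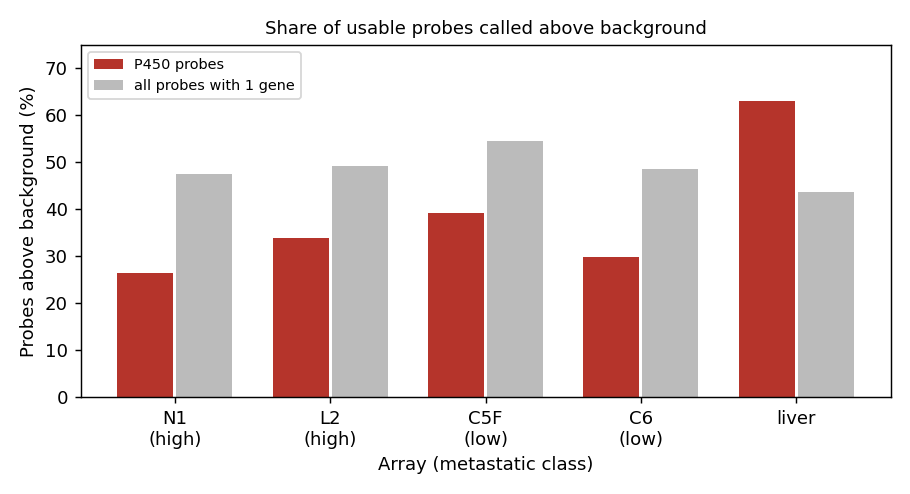
Percentage of usable single-gene probes called above background (y axis) on each array (x axis, N1, L2, C5F, C6 and liver), with P450 probes beside all probes. P450 shares are 26.5% to 39.1% in the lines and 63.1% in liver, and the shares of all probes are 47.5% to 54.4% in the lines and 43.6% in liver.

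Between the highly metastatic and the low-metastatic lines, no P450 probe was called. The limma test of 2 lines against 2 called 0 of 48 members and 0 of all 13741 probes at an adjusted p under 0.05 (0% of probes). At an unadjusted p under 0.05, 3 members passed, or 6.25%, against 7.31% of all probes. The classes did not overlap for 9 of 24 members with all 4 lines usable and at least 1 above background, or 37.5%, against 38.1% of all such probes. Both shares were near those of the array as a whole. The largest difference was that of Cyp27a1, -4.07 ± 0.70 (SE, high minus low, adjusted p = 0.67), with L2 alone standing for the highly metastatic class. With irregular spots kept, so that N1 entered at 6.79, the difference was -2.52.

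Of the other members measured above background in the brighter class, Cyp4f6 differed by -1.21 ± 0.61 and Cyp11a1 by -0.97 ± 0.69 (SE, high minus low). In both, N1 was near background and L2 was not. Cyp4f5 differed by 1.16 ± 1.09, with 6.21 in N1 and 4.29 in L2 against 4.09 in C6, so the spread within the highly metastatic class was as large as the difference. Cyp17a1 differed by 0.66 ± 0.35 and Cyp20a1 by -0.42 ± 0.25, and none of these passed.

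Among the partners that P450 enzymes need, 1 of 9 tested genes for electron donors and haem supply was lower and 0 were higher, a share near the 9.38% of all probes. That gene was Cyb5a, the cytochrome b5 that donates an electron to several P450 enzymes. It read 8.10 in N1, 7.73 in L2, 8.03 in C5F and 7.33 in C6, against 10.54 in liver, a difference of -2.74 ± 0.39 (SE, limma adjusted p = 0.0324). Por, the oxidoreductase that supplies the microsomal P450 enzymes, read 5.01, 4.53, 3.98 and 4.22 in N1, L2, C5F and C6, against a liver spot near background at 4.20, and did not pass. Fdx1, the ferredoxin of mitochondrial forms such as Cyp27a1, differed by -1.13 ± 0.52 (SE) and did not pass.

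Among regulators of P450 genes, 1 of 5 tested was lower, beside 9.38% of all probes tested. Hnf4a, the hepatocyte nuclear receptor that acts on many liver P450 promoters, read 4.96 in N1, 4.50 in L2, 5.41 in C5F and 5.13 in C6, against 7.07 in liver. Its difference was -2.07 ± 0.30 (SE, limma adjusted p = 0.0332). Nr1h4, the bile acid receptor that represses Cyp7a1 in liver, read 3.94 in N1 and 4.0 in C6, with L2 and C5F at the floor, against 8.92 in liver, and did not pass (adjusted p = 0.0809). Of 3 tested bile acid enzymes that are not P450 enzymes, 2 were lower, beside the same 9.38% of all probes. These were Akr1d1, the steroid 5-beta-reductase, at -5.42 ± 0.94 (SE, limma adjusted p = 0.0436), and the bile acid coenzyme A ligase Slc27a5, at least 426-fold lower.

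Markers of several liver cell types were also lower in the lines, and others were not. Sums are of linear normalised signal over the markers of a list that were usable on all 5 arrays. Counts of markers called lower stand beside 9.38% of all probes tested. For 4 Kupffer cell markers the sum was 52.6 to 77.3 in the lines and 3374 in liver, and 2 of the 4 were called lower. For 3 sinusoidal endothelial markers (Stab2, Lyve1, Kdr) it was 2.78 to 3.74 in the lines and 289 in liver, and 3 of 3 were called lower. A further endothelial marker, Pecam1, was above background in all 4 lines and had no usable liver spot.

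For 4 other hepatocyte markers (Alb, Ttr, Tf, Serpina1) the sum was 11.2 in N1, 14.6 in L2, 2250 in C5F and 11.2 in C6, against 30920 in liver. Of the 4, Alb alone was called lower, at the floor in all 4 lines. Ttr, Tf and Serpina1 were above background in C5F alone among the lines and did not pass (limma adjusted p = 0.127, 0.117 and 0.145). A further marker of this list, Apoa1, read 10.02 in C5F and was at the floor in N1, L2 and C6. It had no usable liver spot and was not tested. Of the 5 defining P450 markers of hepatocytes (Cyp2e1, Cyp2d2, Cyp2c12, Cyp7a1, Cyp27a1), L2 had none above background, C6 had Cyp27a1, and C5F had Cyp27a1 and, by the second probe, Cyp2e1. N1 had none with a usable spot above background, its Cyp27a1 spot being unusable. The liver had all 5.

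No bile duct marker could be tested against liver, and the stellate cell markers were mixed. Krt19, a duct keratin, read 9.14 in L2, 11.11 in C5F and 10.43 in C6, with no usable N1 or liver spot. Epcam was near background in L2, at 6.21 in C5F and at 5.61 in liver, and Sox9 and Spp1 were near background on all 5 arrays. Of the stellate cell markers, the collagen gene Col1a1 read 7.49 in N1 and 7.10 in C5F, against 7.56 in liver. Reln was below the liver in both usable lines, at 1.42 and near background in N1 and 5.24 in C6, against 8.09. Rgs5, the only stellate cell marker tested, was called lower. The red cell marker Alas2 was lower by at least 9.93-fold, and the 1 lymphocyte marker tested, Cd3e, did not pass. The part of the cell makeup in the P450 differences was not tested.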

How the data were processed

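Total RNA was labelled as cRNA and hybridised to CodeLink single-colour arrays, 1 per sample. Per the file headers, the authors' scanner files were exported by CodeLink Expression Analysis 4.1.0 and give raw intensity, normalised intensity and a quality call per spot. The deposited raw intensity was quantile normalised across the 5 arrays, floored at 2.53, the median signal of spots near background, and set to log2. Irregular, contaminated and masked spots were treated as missing, and the 1280 control spots were left out. Genes came from the platform annotation, in which 16753 probes had 1 symbol, 165 several and 16931 none. Probes above background either in liver or on 2 or more line arrays (16377) entered a limma 3.58.1 fit (R 4.3.3) with 3 groups, liver and the 2 metastatic classes. The procedure was tested on simulated data. A fit across all probes gave every adjusted p. A gene with several probes was summarised by the brightest, and probes of a gene were described singly. The single liver contributes no spread, and standard errors of probes with all lines at the floor come from the prior alone. Whether the lines of a class are separate cultures is stated only by their names, so p-values measure the spread between these arrays. Any member above background on an array may be named, the 6 members with the largest difference between the classes are named if above background on every usable array of the brighter class, and members near background on all arrays are given by name alone. Members and lists were chosen with earlier results of these data known. Alternatives covered scaling, the floor, irregular spots, the filter, the variance prior, grouping of the lines and leaving out each line.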

Additional observations from a re-analysis of the deposited data

Results flagged for a closer look

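Of 24 P450 probes with 4 usable lines and a signal above background in at least 1, 2 had a line far from the other 3 by Dixon's gap criterion, where chance gives about 1 in 20. For a Cyp2c23 probe, L2 was lowest at 1.34, with N1 at 3.43, C5F at 3.62 and C6 at 3.65, and only C5F was above background, so this gap lies among values that have no order. For Cyp11a1, N1 was lowest at 2.34 and near background, with L2 at 4.09, C5F at 4.28 and C6 at 4.08.

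The same Cyp2c23 probe had a difference of -1.25 between the classes (high minus low), with its values on both sides of the liver signal. N1, L2, C6 and the liver were all near background, so these values have no order, and the difference was not tested.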

How the results depend on the processing

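No paired analysis was possible because the lines carry no replicate numbers that the labels share between classes. The count of members lower in the lines was 31 in the analysis as reported. Changes of the filter alter how many probes are tested. Without the filter on dim probes the count was 20 of 66, against 6.01% of all probes. When a probe had to be above background on at least 3 arrays, the count was 9 of 20, against 4.58% of all probes. It ranged from 0 to 16 when 1 line was left out, and was 30 to 38 under the other scalings, the offset, irregular spots kept, both variance priors and the lines as 1 group. With every line kept and the filter unchanged, those settings called 8.29% to 11.1% of all probes lower. Higher calls were 1 without the filter and 1 with the lines as 1 group, Cyp1a1 in both. The median difference of P450 genes (-5.11) was -5.62 with scaling to the median of probes above background, -5.37 with the deposited normalised intensities, -2.34 with an offset of 50 in place of the floor and -3.27 with at least 3 arrays above background. It ran from -5.55 to -5.37 when 1 line was left out. With the probes of a gene averaged it was -4.65. Scaling moved the median of all probes tested (0.15) to -0.14 with the median of probes above background and to 0.22 with the 75th percentile, so differences near 0 have no settled sign. Uncalled members that changed sign were the Cyp3a2 or Cyp3a23-3a1 probe (-0.25), the dimmer Cyp2c6v1 probe (-0.20) and Cyp27b1 (-0.25) with the median scaling, and Cyp1b1 with the 75th percentile (0.13), the deposited intensities (0.046) and irregular spots kept (0.10). With 1 line left out, Cyp1b1 ran from -0.32 to 0.13 and Cyp27b1 from -0.034 to 0.30. Without 1 line, adjusted p of the members called in the analysis as reported ran from 0.0466 to 0.144. Against liver, 393 of the other results for single probes kept their direction and side of the threshold, 17 lost the call and 9 gained one, with every line kept; between the classes all 54 did. The single liver array sets the limit of every comparison with it.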
